A study of Mus musculus with 13 samples.

Results

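Type 2 immunity genes were followed in tumor-infiltrating T cells. The tumors were subcutaneous B16-F10 grafts, a mouse melanoma line. The 5 genes Il4, Il5, Il13, Gata3 and Stat6 were chosen by symbol, out of 12963 genes in the deposited table, and 4 of them were measured. Il13 was not analysed here. The genes and the gene lists below were chosen with earlier results of these data known. Their counts beside the share of all genes are therefore a description and not a test. All mice carried Foxp3-EGFP-DTR. Cells that express Foxp3 in these mice are green by EGFP and, because they also make the human receptor for diphtheria toxin (DTx), die when the toxin is given. DTx thus removes Foxp3+ regulatory T (Treg) cells in every organ and not in the tumor alone. The 13 bulk RNA-seq libraries formed 5 groups: CD4+ Tconv cells from mice given PBS (CD4 PBS, n = 2) or DTx (CD4 DTx, n = 3), CD8+ Tconv cells from mice given PBS (CD8 PBS, n = 2) or DTx (CD8 DTx, n = 3), and Treg cells from mice given PBS (Treg PBS, n = 3). The study used adult mice of both sexes and called the replicates biological. No group of wild-type mice given DTx was analysed here, so toxin treatment and loss of Treg cells cannot be told apart.

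IL-4 and IL-5 are secreted by T helper 2 (Th2) cells, which act against helminths and in allergy: IL-4 drives naive CD4+ T cells toward the Th2 state and B cells toward IgE, and IL-5 sustains eosinophils. GATA3 is the transcription factor that opens and activates the Th2 cytokine locus, and it is also needed for T cell development and expressed by many Treg cells. STAT6 is phosphorylated downstream of the IL-4 receptor and induces Gata3, so its activity is controlled on the protein and not only through its mRNA. Il4, Il13, Rad50 and Il5 lie next to each other on mouse chromosome 11.

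The windows of 250 bases before the RefSeq start of Il4 and of Il5 (GRCm38.p6, which is not the build used by the authors) are shown because both genes came from near 0 to high levels in the same libraries. Capitals mark GATA words (AGATAA or AGATAG as well as TGATAA or TGATAG), the STAT6 pattern TTCNNNNGAA and the NFAT core GGAAA, on either strand, and overlapping matches run together.
Il4, chr11:53618666-53618915, minus strand: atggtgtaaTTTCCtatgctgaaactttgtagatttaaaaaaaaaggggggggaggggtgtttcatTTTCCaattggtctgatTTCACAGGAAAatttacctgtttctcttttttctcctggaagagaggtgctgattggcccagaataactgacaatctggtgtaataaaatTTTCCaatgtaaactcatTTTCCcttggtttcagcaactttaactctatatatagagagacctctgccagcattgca
Il5, chr11:53720544-53720793, plus strand: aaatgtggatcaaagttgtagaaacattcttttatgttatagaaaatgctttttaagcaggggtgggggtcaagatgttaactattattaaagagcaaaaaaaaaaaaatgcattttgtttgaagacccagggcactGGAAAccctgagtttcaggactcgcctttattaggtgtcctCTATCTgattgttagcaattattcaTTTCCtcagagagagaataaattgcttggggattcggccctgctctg
The Il4 window held 0 GATA words, 1 match to the STAT6 pattern and 5 NFAT cores. RefSeq gives Il4 a second window, at chr11:53617339-53617588 on the minus strand, that does not end at the start of the gene. It held 1 GATA word, 80 bases before its end, with 0 matches to the STAT6 pattern and 0 NFAT cores. The Il5 window held 1 GATA word, 72 bases before the start, with 0 matches to the STAT6 pattern and 2 NFAT cores. Among 32851 RefSeq windows of the same length, 26.5% held a GATA word, 5.85% the STAT6 pattern and 55.6% the NFAT core. These matches describe letters in a window and were not tested as binding sites.

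Values are given as normalized reads, the deposited signal, in which 1 read was worth between 0.661 and 1.37 units, depending on the library. The libraries held between 15947556 and 34140486 recovered reads. Foxp3 was at 0 to 1.87 normalized reads in the 5 CD4 Tconv libraries and at 1178 to 1896 in the Treg libraries, and Cd4 was at 10595 to 32503.5 over both kinds of CD4 library. The T cell genes Cd3e, Cd3d, Cd3g, Cd2 and Lck were present in all 13 libraries. CD8 DTx replicates 2 and 3 stood apart by basophil transcripts, given beside the Il4 values below. Tests were made with limma on log2(value + 1) over 12667 genes, and a gene passed at a Benjamini-Hochberg adjusted p under 0.05. Fewer cells with a transcript and less transcript per cell cannot be told apart in bulk samples.

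The main comparison asked whether CD4 Tconv cells took on type 2 expression after Treg ablation. Il4, Il5 and Gata3 rose and Stat6 did not pass, so 3 of 4 measured members were called higher and 0 lower, where 8.64% of all tested genes were called higher and 4.08% lower. With a 4-fold minimum added, the same 3 members passed, against 5.06% of all tested genes called higher. Il4, Il5 and Gata3 were each higher in every CD4 DTx library than in both CD4 PBS libraries, a pattern that 23.4% of tested genes showed. That share was not computed for falls or for the other comparisons, where a lack of overlap only describes the values.

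Il4 was measured at 1.37 and 0.661 normalized reads in CD4 PBS replicates 2 and 3, which is 1 read in each library. In CD4 DTx replicates 1, 2 and 3 it was at 256, 718 and 442. The groups did not overlap, and the CD4 PBS values lay below the level of 3 reads. The log2 fold change of Il4 was 7.78 ± 1.03 (SE, 95% interval 5.54 to 10.01, limma adjusted p = 5.0e-04). Pooled over libraries, 1312 reads stood against 2, a depth-corrected ratio of 524.9 with an exact 95% interval of 145.0 to 4339 that covers counting error only. Il4 passed in all 15 other settings tried.

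Il5 was measured at 8.199 and 0 normalized reads in CD4 PBS replicates 2 and 3 and at 738, 791 and 356 in CD4 DTx replicates 1, 2 and 3. The groups did not overlap. The log2 fold change of Il5 was 7.61 ± 1.54 (SE, 95% interval 4.27 to 10.95, limma adjusted p = 0.0064), and 1833 reads stood against 6. Without CD4 PBS replicate 3 the Il5 call was lost, with a log2 fold change of 6.01 and a limma adjusted p of 0.0975. Il4 and Il5 did not keep 1 ratio in the CD4 DTx libraries, where Il4 divided by Il5 was 0.347, 0.907 and 1.24 for replicates 1, 2 and 3.

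Gata3 was already well expressed in CD4 PBS, at 1880.4 and 2695 normalized reads. In CD4 DTx replicates 1, 2 and 3 it was at 5309.6, 14502.5 and 10531, all above both CD4 PBS libraries. The log2 fold change of Gata3 was 2.05 ± 0.41 (SE, 95% interval 1.15 to 2.95, limma adjusted p = 0.0062), about a 4.14-fold difference. Replicate 2 was the highest of the 3 CD4 DTx libraries for Il4, Il5 and Gata3 alike, and it also had the highest Il1rl1. Without CD4 PBS replicate 2 the Gata3 call was lost, with a log2 fold change of 1.79 and a limma adjusted p of 0.0757.

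Stat6 was measured at 11345 and 14141.5 normalized reads in CD4 PBS, against 7903, 10957 and 11672 in CD4 DTx. The groups overlapped. The log2 fold change of Stat6 was -0.34 ± 0.28 (SE, 95% interval -0.94 to 0.27, limma adjusted p = 0.47). Within a library, Gata3 divided by Stat6 was 0.166 and 0.191 in CD4 PBS and between 0.672 and 1.32 in CD4 DTx.

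**Figure D1:**
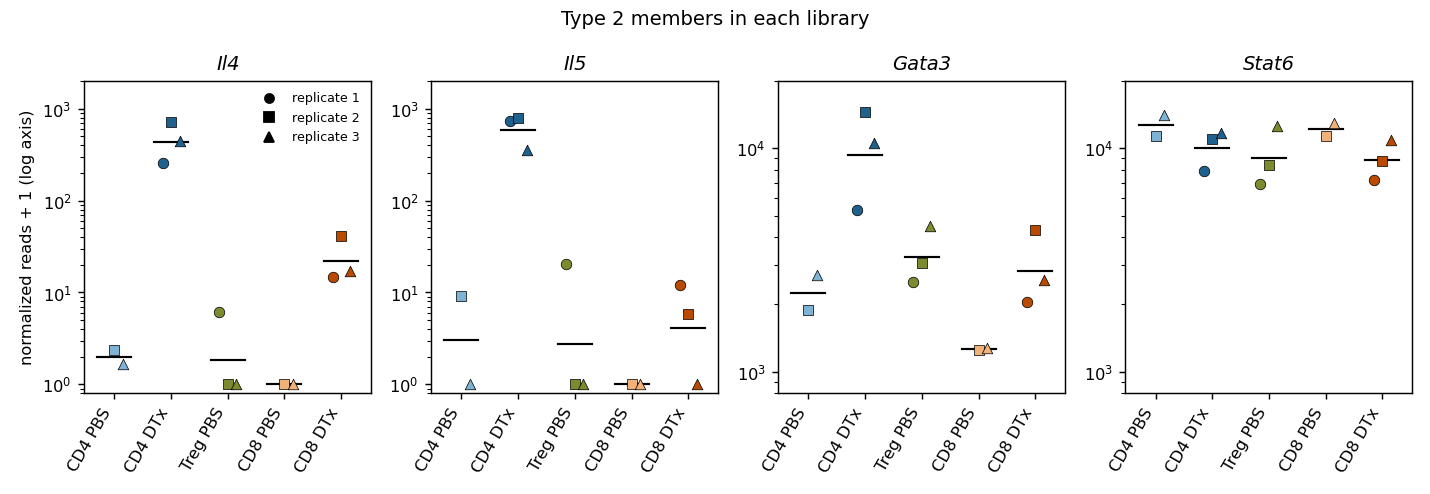
Normalized reads of Il4, Il5, Gata3 and Stat6 (log axes, with 1 added) in each of the 13 libraries by group; symbols give the replicate number and bars the mean on the log scale. Il4 and Il5 lie between 256 and 791 in CD4 DTx and at or below 40.4 in all other groups, whereas Stat6 lies between 6938 and 14141.5 throughout.

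Per kilobase of exon, the mean level in CD4 DTx was 385 ± 189 for Il4, 409 ± 155 for Il5, 2543 ± 1159 for Gata3 and 2312 ± 455 for Stat6 (SD, n = 3). Exon length counted each base of all annotated exons of a gene once (GENCODE, GRCm38), and not the transcript expressed. The order of genes on this scale is therefore approximate. On it the mRNAs of the cytokines stayed below those of both transcription factors even where they rose. In CD4 PBS the mean per kilobase was 0.826 for Il4 and 2.67 for Il5, against 575 for Gata3 and 2895 for Stat6 (n = 2).

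Treg cells asked a different question, namely whether the population that DTx removed had carried these transcripts itself. Il4 was measured at 5.08, 0 and 0 normalized reads in Treg PBS replicates 1, 2 and 3, and Il5 at 19.5, 0 and 0. Reads of both cytokines thus came from replicate 1 alone. Gata3 was at 2527, 3079 and 4477 and Stat6 at 6938, 8436 and 12611.5, and both overlapped with CD4 PBS. In Treg PBS against CD4 PBS, 0 of 4 members passed limma, where 13.5% of tested genes were called higher and 6.91% lower. At an unadjusted p under 0.05, 0 of the 4 members passed as well, beside 4401 of all 12667 tested genes. Among the members, edgeR and DESeq2 on the recovered reads also called 0. The log2 fold change of Gata3 was 0.54 ± 0.41 (SE, limma adjusted p = 0.37).

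CD4 DTx cells exceeded Treg cells in 3 of 4 members, where 3.36% of tested genes were called higher. The log2 difference was 7.89 ± 0.92 for Il4 (limma adjusted p = 4.2e-04), 7.76 ± 1.37 for Il5 (0.0049) and 1.51 ± 0.37 for Gata3 (0.026), each with its SE. Over 16 other settings, the Il5 call was lost in 1 and the Gata3 call in 5. Those for Gata3 included leaving out CD4 DTx replicate 2 or 3 and Treg PBS replicate 1 or 2, with limma adjusted p of up to 0.10. The lowest CD4 DTx library, at 5309.6 for Gata3, lay above the highest Treg library at 4477. Stat6 differed by 0.15 ± 0.25 on the log2 scale (limma adjusted p = 0.80). Both comparisons share the CD4 or Treg libraries with others given here.

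In CD8 Tconv cells, Il4 was at 0 and 0 normalized reads in CD8 PBS and at 13.9, 40.4 and 16.2 in CD8 DTx replicates 1, 2 and 3. The groups did not overlap, and Il4 in CD8 DTx was at least 6.14-fold higher than the level of 3 reads per library in CD8 PBS. Il4 passed (log2 fold change 4.46 ± 1.03, limma adjusted p = 0.017), so 1 of 4 members was called higher and 0 lower, where 7.40% of tested genes were called higher and 3.47% lower. Without CD8 DTx replicate 2 the Il4 call was lost, with a log2 fold change of 3.997 and a limma adjusted p of 0.064. It was lost as well without CD8 PBS replicate 2 (0.081) or replicate 3 (0.14).

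Beside these Il4 values stood transcripts of basophils, which also make IL-4. Mcpt8, a basophil protease, was at 8.31, 7313 and 828 normalized reads in CD8 DTx replicates 1, 2 and 3, and at 6.07 and 0 in CD8 PBS. Prss34, a further basophil protease, was at 0, 10945 and 690 in the same CD8 DTx libraries, and Gata2, a mast cell and basophil transcription factor, at 0, 323 and 144. The summed level of the 9 measured mast cell and basophil genes ran from 158.6 to 590.5 in CD8 PBS and from 209.7 to 23140 in CD8 DTx. The part of these transcripts in the CD8 Il4 result was not tested. Cd4 was at 413, 0 and 40.4 in CD8 DTx replicates 1, 2 and 3. As a share of the CD4 DTx mean, Cd4 came to 1.56%, 0% and 0.152% in these libraries. Il4 came to 2.9%, 8.57% and 3.42% of its CD4 DTx mean, and Il5 to 1.8%, 0.767% and 0%. The part of any CD4 cells in the CD8 Il4 result was not tested.

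Among the CD4 DTx libraries, only replicate 3 held reads of these proteases. Mcpt8 was at 0, 0 and 76.4 in CD4 DTx replicates 1, 2 and 3, Prss34 at 0, 0 and 36.9, and Gata2 at 0 in all 5 CD4 Tconv libraries. Replicate 2, the highest for Il4, held 0 reads of Mcpt8, Prss34 and Gata2, and also of Cpa3, Fcer1a and Cma1. The same library was the highest of the CD4 DTx libraries for Hdc. Kit was at 99.1, 17.4 and 108 in CD4 DTx replicates 1, 2 and 3, against 0 and 27.1 in CD4 PBS. Ms4a2 was at 5.61, 2.04 and 25.02, against 35.5 and 0 in CD4 PBS. Cpa3 was at 8.42 in CD4 DTx replicate 1, against 4.1 and 3.3 in CD4 PBS. Without CD4 DTx replicate 3 the limma log2 fold change of Il4 in CD4 cells was 7.76 with an adjusted p of 0.0026. The 9 mast cell and basophil genes summed to between 57.4 and 58.1 in CD4 PBS and between 817.8 and 1390 in CD4 DTx. Hdc, the histamine-producing enzyme, was at 938, 1370.1 and 541 in CD4 DTx and made up most of that sum. The part of these transcripts in the CD4 Il4 result was not tested.

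Some markers of type 2 innate lymphoid cells (ILC2), which make IL-5 and need GATA3, were also higher in CD4 DTx. Of 6 listed genes, 4 passed as higher in CD4 DTx than in CD4 PBS, namely Il1rl1, Nmur1, Calca and Klrg1. The others, Il17rb and Arg1, did not, and 8.64% of all tested genes were called higher. Nmur1 was at 0 and 0 normalized reads in CD4 PBS, against 400.2, 368 and 245 in CD4 DTx. It was also at 259, 314 and 348 in Treg PBS, where Il5 was at 0 in the libraries of replicates 2 and 3. The 6 genes summed to between 309.8 and 423.6 in CD4 PBS, between 3787 and 7825 in CD4 DTx and between 9301 and 14060 in Treg PBS. In CD8 cells the sum was between 89.3 and 618.4 with PBS and between 3407 and 7678 with DTx. There, 3 of the 6 passed as higher after DTx, beside 7.40% of all tested genes, while Il5 did not pass. None of the 6 was at 0 throughout CD4 DTx, and their part in the Il5 and Gata3 results was not tested.

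**Figure D2:**
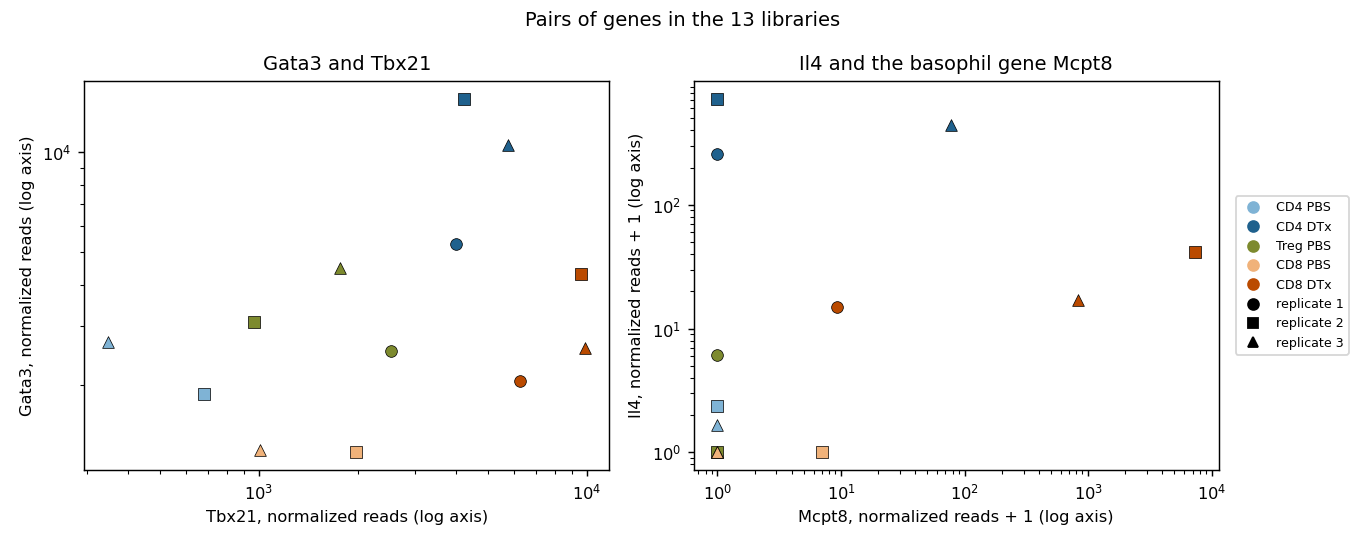
Left, Gata3 against Tbx21; right, Il4 against Mcpt8, in normalized reads on log axes for the 13 libraries, with color for the group and symbol for the replicate. On the left, CD4 DTx libraries lie highest for Gata3, and CD8 DTx libraries lie farthest to the right for Tbx21; on the right, CD4 DTx replicates 1 and 2 hold 256 and 718 Il4 reads with Mcpt8 at 0, while CD8 DTx replicate 2 holds 40.4 with Mcpt8 at 7313.

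Il5 was at 0 and 0 normalized reads in CD8 PBS and at 11.1, 4.82 and 0 in CD8 DTx replicates 1, 2 and 3. The groups overlapped at 0, and Il5 did not pass (log2 fold change 2.05 ± 1.54, limma adjusted p = 0.41). Gata3 was at 1251 and 1276 in CD8 PBS and at 2048, 4295 and 2579 in CD8 DTx. These groups did not overlap, and Gata3 did not pass as fitted (1.16 ± 0.41 on the log2 scale, limma adjusted p = 0.093). It passed with the replicate number as a block (1.44, limma adjusted p = 0.0089) and with DESeq2 on the recovered reads (1.23, adjusted p = 0.0265). Stat6 was at 11395 and 13019 in CD8 PBS and at 7192, 8750.3 and 10934 in CD8 DTx, again without overlap and without passing (-0.46 ± 0.28, limma adjusted p = 0.31).

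Whether DTx moved a member more in CD4 than in CD8 cells was tested directly. The difference of the log2 fold changes was 3.32 ± 1.46 for Il4 (unadjusted p = 0.041), 5.57 ± 2.17 for Il5 (unadjusted p = 0.025), 0.89 ± 0.58 for Gata3 and 0.13 ± 0.39 for Stat6, by limma with SE. None of the 4 members passed limma, with an adjusted p of 1 for each, where 0.0474% of tested genes were called. At an unadjusted p under 0.05, 2 of the 4 passed, beside 513 of all 12667 tested genes, and edgeR and DESeq2 called 0 members. The 95% interval of the Gata3 difference ran from -0.38 to 2.15.

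After DTx, CD4 cells held more Il4, Il5 and Gata3 than CD8 cells. The log2 difference was 4.31 ± 0.92 for Il4 (limma adjusted p = 0.039), 7.17 ± 1.37 for Il5 (0.025) and 1.72 ± 0.37 for Gata3 (0.039), and 3 of 4 members were called higher, where 0.750% of tested genes were. Stat6 differed by 0.18 ± 0.25 (limma adjusted p = 0.89). Cells with the same replicate number deviated together in these groups, and with that number as a block the same 3 members passed, while calls over all genes went from 208 to 414. The calls were fragile: leaving out any single library of these groups left 0 or 1 of the 3, and edgeR on the recovered reads called 1. In CD4 PBS against CD8 PBS, 0 of 4 members passed limma, edgeR or DESeq2, where limma called 1.08% of tested genes. At an unadjusted limma p under 0.05, 0 of the 4 passed, beside 827 of all 12667 tested genes. Gata3 differed by 0.83 ± 0.45 on the log2 scale and did not pass (limma adjusted p = 0.98).

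**Figure D3:**
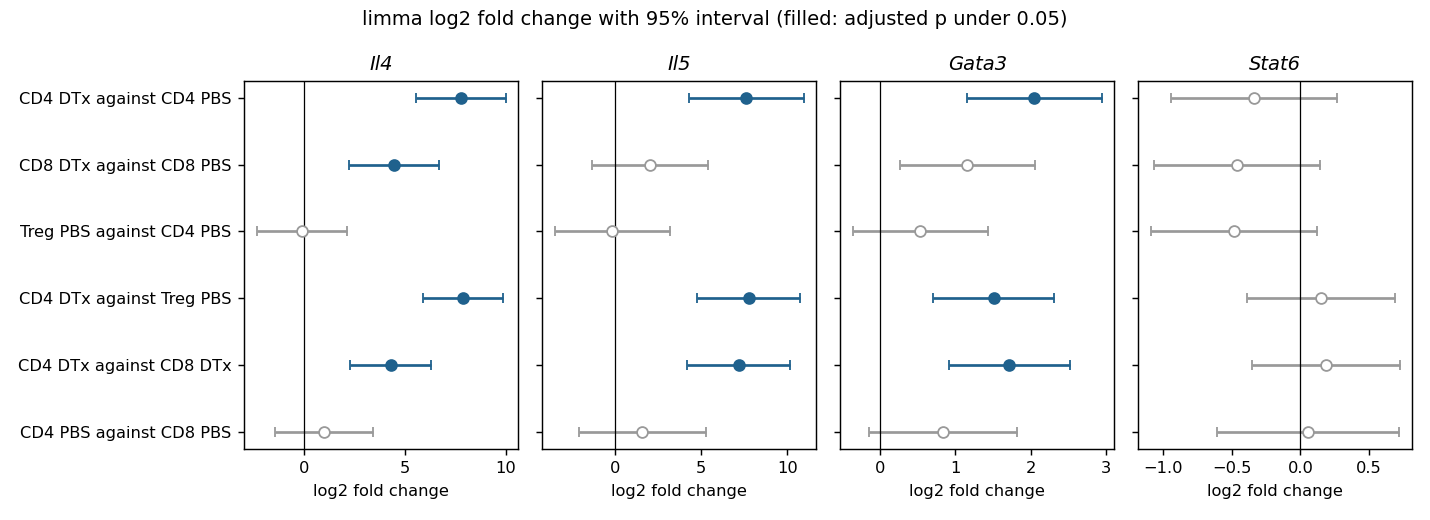
limma log2 fold changes of the 4 members with 95% intervals in 6 comparisons; filled points have an adjusted p under 0.05. Il4, Il5 and Gata3 are filled in each comparison in which CD4 DTx comes first, Il4 also in CD8 DTx against CD8 PBS, and Stat6 in none.

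The order of the mean levels therefore differed between members. For Il4 it was CD4 DTx, CD8 DTx, Treg PBS, CD4 PBS and CD8 PBS. CD8 DTx against Treg PBS passed, with a log2 difference of 3.59 ± 0.92 (limma adjusted p = 0.031), where 3.88% of tested genes were called higher. That call was lost with edgeR (adjusted p = 0.064), when only the compared groups were fitted (0.17) and on leaving out any library of these groups other than Treg PBS replicate 1 (up to 0.12). Treg PBS against CD4 PBS and CD4 PBS against CD8 PBS did not pass for Il4. For Il5, CD4 DTx passed against CD4 PBS, Treg PBS and CD8 DTx, and the other comparisons fitted did not pass. Treg PBS against CD8 PBS and CD4 DTx against CD8 PBS were not fitted. For Gata3 the order was CD4 DTx, Treg PBS, CD8 DTx, CD4 PBS and CD8 PBS, in which Treg PBS and CD8 DTx did not pass (limma adjusted p = 0.85) and the ranges of CD8 DTx and CD4 PBS overlapped. For Stat6 the order was CD4 PBS, CD8 PBS, CD4 DTx, Treg PBS and CD8 DTx, and no comparison that was fitted passed.

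The wider type 2 genes were counted in 4 lists. Among receptors and signalling molecules, 2 of 16 tested genes rose, 1 fell and 13 did not pass in CD4 DTx against CD4 PBS, with a median log2 fold change of -0.37 against -0.04 over all genes, of which 8.64% were called higher and 4.08% lower. The gene that fell was Il4ra, which encodes the chain that binds IL-4 and signals through STAT6. Il4ra was at 15303 and 12894 normalized reads in CD4 PBS, against 2339, 6551 and 5555 in CD4 DTx, with no overlap (-1.67 ± 0.41 on the log2 scale, limma adjusted p = 0.018). Its call was lost without CD4 PBS replicate 2 (0.13) or replicate 3 (0.086), and when only the compared groups were fitted (0.067). Il4ra also fell in CD8 DTx against CD8 PBS (-2.24 ± 0.41, limma adjusted p = 0.0052) and its Treg PBS level was below that of CD4 PBS (-1.91 ± 0.41, 0.0062). The genes that rose were Il2ra, the high-affinity IL-2 receptor chain, by 4.42 on the log2 scale, and Cish, a STAT5-induced inhibitor of cytokine signalling, by 2.47. Jak1 (-0.44), Il2rg (0.76) and Ptpn6 (-0.31), the most abundant of those that did not pass, encode a receptor kinase, the shared receptor chain and a phosphatase.

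Among 21 transcription regulators, 8 rose, 2 fell and 11 did not pass in CD4 cells, with a median log2 fold change of 0.45. Over all tested genes, 8.64% were higher and 4.08% lower. In Treg PBS against CD4 PBS, 7 of the 21 were higher and 4 lower, beside 13.5% and 6.91% of all tested genes. CD4 DTx against Treg PBS gave 4 higher and 0 lower, where 3.36% of tested genes were called higher. Maf, which activates Il4 in Th2 cells, was at 283 and 177 normalized reads in CD4 PBS, against 2966, 2949 and 2137 in CD4 DTx, with no overlap (3.56 ± 0.38 on the log2 scale, limma adjusted p = 1.6e-04). Maf was also high in Treg PBS, at 4740.04, 3576 and 4296, and stayed between 65.3 and 204 in CD8 cells. Pparg, a nuclear receptor that Th2 cells use, was at 32.8 and 5.94 in CD4 PBS, against 268, 826 and 334 in CD4 DTx (4.78 ± 1.08, limma adjusted p = 0.012), and Treg cells held it at 289 to 628. Its call was lost without CD4 PBS replicate 3 (limma adjusted p = 0.16). Epas1, a hypoxia-responsive factor, rose by 3.41, Zbtb32, a repressor of T cell cytokines, by 3.11 and Nfil3, a basic leucine zipper factor, by 2.74 on the log2 scale. The Epas1 call was lost without CD4 PBS replicate 2 (0.086) or replicate 3 (0.096) and without CD4 DTx replicate 2 (0.053), and without CD4 PBS replicate 2 that of Nfil3 (0.086). Junb (-2.29), Satb1 (-0.97) and Nfatc1 (0.80) did not pass. Without CD4 PBS replicate 2 the list gave 4 higher and 0 lower, and without CD4 PBS replicate 3 it gave 5 higher and 0 lower.

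Among 20 effector and surface genes tested, 11 rose, 0 fell and 9 did not pass in CD4 cells, with a median log2 fold change of 3.405, or 3.32 with 5 genes absent from CD4 PBS at their lower bound. The share of all tested genes called higher was 8.64%. Treg cells shared part of this list: in Treg PBS against CD4 PBS, 10 of the 20 were higher and 1 lower. Over all tested genes, 13.5% were higher and 6.91% lower there. In CD4 DTx against Treg PBS, 4 of the 20 were higher and 4 lower, with a median log2 difference of -0.07. That comparison called 426 higher and 576 lower of all 12667 tested genes. Ccl1, a chemokine for CCR8+ cells, was at 0 and 0 normalized reads in CD4 PBS, against 1634, 1340 and 1647 in CD4 DTx, which is at least 506.6-fold higher than the level of 3 reads per library. Il1rl1, the IL-33 receptor, was at 84.7 and 41.6 in CD4 PBS, against 1886, 5156 and 3487 in CD4 DTx (5.74 ± 0.47 on the log2 scale, limma adjusted p = 6.6e-05), and Treg cells held it at 1138 to 1470.03. Csf2, the gene of GM-CSF, was at 21.9 and 0 in CD4 PBS, against 223, 197 and 446 in CD4 DTx (5.82 ± 1.07, limma adjusted p = 0.0034).

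Cyp11a1, a steroid-synthesis enzyme that Th2 cells and basophils can express, was at 0 and 0 in CD4 PBS, against 218, 456 and 159 in CD4 DTx, at least 91.3-fold higher. It was at 0 in all 3 Treg libraries, and at 0, 1200 and 264 in CD8 DTx replicates 1, 2 and 3, and replicates 2 and 3 also held the Mcpt8 reads given above. Its CD4 call was lost on leaving out any of the 5 CD4 libraries, with limma adjusted p between 0.059 and 0.17. Ccr3, an eotaxin receptor, was at 0 in CD4 PBS, against 14.96, 83.8 and 40.8 in CD4 DTx, and higher in Treg cells at 391 to 705. Ecm1 (-0.55), Plcd1 (3.399) and Il10 (3.82) did not pass, and Il10 was at 0, 191 and 75.1 in CD4 DTx against 783 to 2214 in Treg cells. The list gave 7 higher without CD4 PBS replicate 2, 5 without CD4 PBS replicate 3 and 7 without CD4 DTx replicate 2.

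The genes that flank the cytokine locus did not pass in CD4 cells. Of 6 tested, 0 passed limma in CD4 DTx against CD4 PBS, edgeR called 0 and DESeq2 0, with a median log2 fold change of 0.07. Over all tested genes limma called 8.64% higher and 4.08% lower, so 0 of 6 does not set these genes apart. At an unadjusted p under 0.05, 2 of the 6 passed, beside 3333 of all 12667 tested genes. Irf1 (-0.50), Aff4 (-0.27) and Uqcrq (0.41) were the most abundant of them. Rad50, which sits between Il13 and Il5 and whose 3' end holds the locus control region, was at 876 and 1353 normalized reads in CD4 PBS, against 2353, 1547 and 1273 in CD4 DTx, with overlap (0.61 ± 0.29, limma adjusted p = 0.20).

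**Figure D4:**
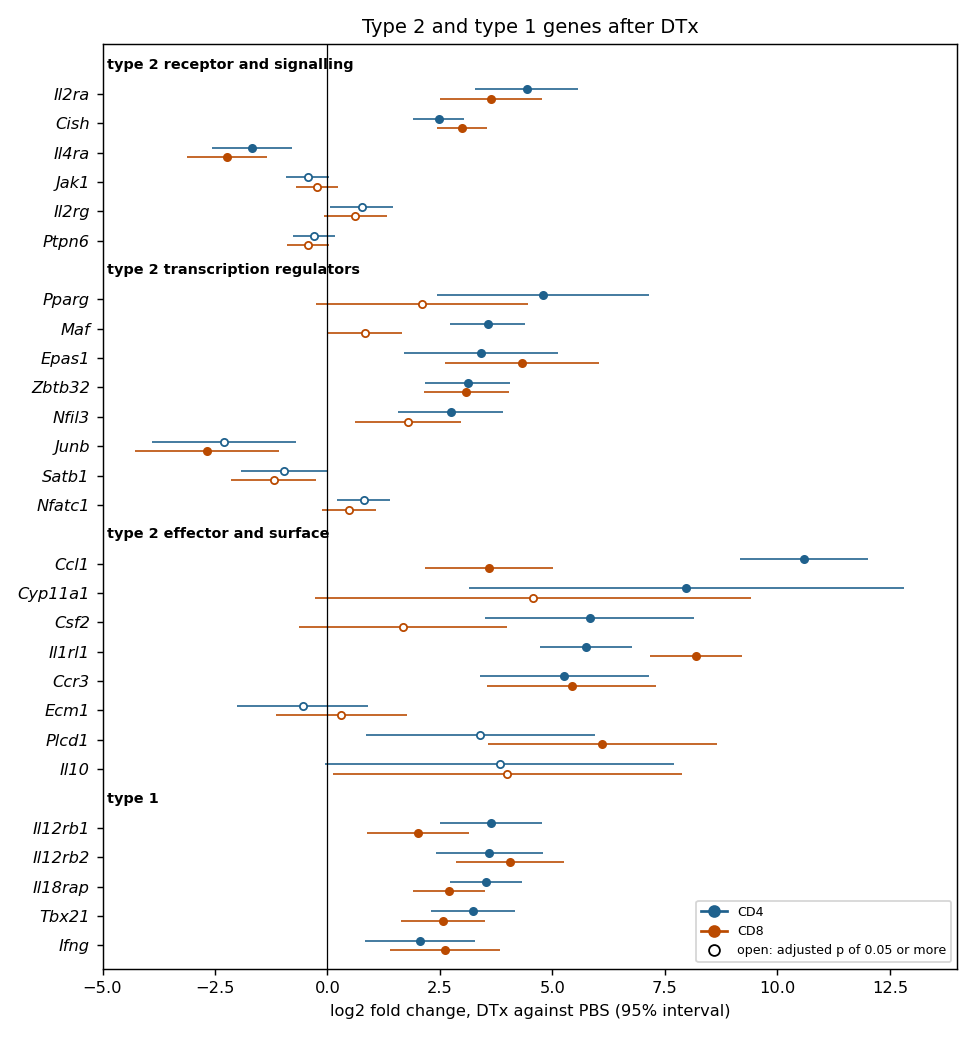
limma log2 fold changes with 95% intervals for named genes of the type 2 lists and of the type 1 list, DTx against PBS, in CD4 (blue) and CD8 (orange) cells; open points did not pass. Il4ra lies below 0 in both cell types, Maf and Pparg are filled in CD4 cells and open in CD8 cells, and the type 1 genes are filled in both.

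The change in CD4 cells was not limited to type 2 genes. Of 14 tested type 1 genes, which serve interferon-gamma producing Th1 cells, 10 rose and 0 fell in CD4 DTx, with a median log2 fold change of 2.15. Over all tested genes, 8.64% were called higher and 4.08% lower. Il12rb1 and Il12rb2, the chains of the IL-12 receptor, rose by 3.64 and 3.60 on the log2 scale, and Il18rap, a chain of the IL-18 receptor, by 3.53. Tbx21, the Th1 counterpart of Gata3, and Ifng were named after their values were seen. Tbx21 was at 681 and 347 normalized reads in CD4 PBS, against 3983, 4220 and 5764 in CD4 DTx (3.24 ± 0.43, limma adjusted p = 5.0e-04). Ifng was at 297 and 479 in CD4 PBS, against 2212, 1085 and 1638 in CD4 DTx (2.06 ± 0.56, 0.031). The CD8 lineage marker Cd8a was also higher: it was at 31.4 and 26.4 in CD4 PBS, against 103, 711 and 1302 in CD4 DTx (3.94 ± 0.84, limma adjusted p = 0.0087). Among the CD4 DTx libraries, Tbx21 followed the same order as Cd8a, whereas Ifng was highest in replicate 1, where Cd8a was lowest. Cd8b1, the other listed CD8 marker, was at 529 and 589 in CD4 PBS, against 267, 1641 and 2360 in CD4 DTx, and did not pass (0.86 ± 0.68, limma adjusted p = 0.45). Both summed to between 560.3 and 614.9 in CD4 PBS and between 370.3 and 3662 in CD4 DTx, and neither was at 0 throughout. Their part in the type 1 and type 2 counts was not tested. Gata3 divided by Tbx21, within a library and not corrected for length, was 2.76 and 7.76 in CD4 PBS and 1.33, 3.44 and 1.83 in CD4 DTx, with overlap. Il4 came to 0.461% and 0.138% of the Ifng value in CD4 PBS and to 11.6%, 66.2% and 27.01% in CD4 DTx. Of 7 tested type 17 genes, 3 rose (Il1r1, Ahr and Rora), and of 7 tested follicular helper genes, 2 rose (Pdcd1 and Icos), with 0 lower in both lists. Over all tested genes 8.64% were called higher and 4.08% lower, so 0 lower does not set lists of this size apart. The Il1r1 call was lost without CD4 PBS replicate 3 (limma adjusted p = 0.405), without CD4 DTx replicate 1, 2 or 3 (0.0702, 0.102 and 0.0782), with edgeR (0.132), with a pseudocount of 0.5 (0.0619) and with equal column totals (0.0517). Sh2d1a, a follicular signalling adaptor, did not pass (0.71).

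In CD8 DTx against CD8 PBS, 2 of 16 receptor and signalling genes were higher and 2 lower, 4 of 21 transcription regulators higher and 2 lower, 6 of 20 effector and surface genes higher and 0 lower, and 8 of 14 type 1 genes higher and 0 lower, where 7.40% of all tested genes were called higher and 3.47% lower. With columns scaled to equal totals, 52.2% of all calls in that comparison were higher, where 68.0% were with the deposited scaling. Maf differed by 0.83 ± 0.38 on the log2 scale in CD8 cells (limma adjusted p = 0.19) and by 3.56 ± 0.38 in CD4 cells, and the difference of 2.73 ± 0.54 had an unadjusted p of 2.7e-04 and an adjusted p of 0.19.

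The genes most like each member over the 13 libraries were listed by Pearson r of log2(value + 1), as a description without a test, since libraries of 1 group share their condition. For Il4 they were Def6 (r = 0.96), Adgre5 (0.95), Stmn2 (0.94), Cbfa2t3 (0.93) and Itgb1 (0.93). For Il5 they were Lmntd1 (0.90), Il4 (0.90), Fam179a (0.89), Pmm2 (0.89) and Il18bp (0.88). For Gata3 they were Nek7 (0.95), Fam219a (0.91), Camk2b (0.91), Nfkb1 (0.90) and Lgals7 (0.89), and for Stat6 Brd1 (0.97), Atxn2 (0.96), Dhx15 (0.96), Cables2 (0.96) and Slc10a1 (0.96). Between members, r was 0.81 for Il4 with Gata3, 0.74 for Il5 with Gata3 and -0.25 for Il4 with Stat6.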

How the data were processed

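T cells from melanomas of Foxp3-EGFP-DTR animals given either agent gave 13 low-input libraries, sequenced on an Illumina HiSeq. Per the labels and methods of the study, the authors checked reads with FastQC, trimmed them with Cutadapt, aligned them with hisat2 to NCBIM37 (mm9), kept unique alignments and tested with DESeq2. Versions, the read counter and the strand setting are not given in the sources used here, so values of overlapping, antisense or near-identical genes are uncertain. The authors deposited 1 table of normalized signal per gene symbol and library, called FPM. Its columns do not sum to 1 fixed total, and 100% of the values are whole multiples of 1 step per library, to within 0.01 of a read, as read counts divided by 1 size factor are. The whole reads were recovered by dividing by that step. Of 12963 rows, 21 hold symbols altered to dates, and 53 are 0 in every library.

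limma 3.58.1 (R 4.3.3, moderated with trend) was fitted to log2(value + 1) over all 13 libraries with 1 mean per group, for the 12667 genes that reached 10 normalized reads in 2 or more libraries. Fold changes are on that scale and understate those of low genes. edgeR 4.0.16 (quasi-likelihood) and DESeq2 1.42.0 on the recovered reads were alternatives, since the planned unit was FPM and the deposited values were not counts. The fit was tested on simulated reads with 1 common spread for all genes and 4-fold changes. No simulated gene was set to go from near 0 to a high level, so that test does not cover the Il4 and Il5 calls. The replicates are called biological by the study and came from separate days. The p-values measure the spread between these libraries. Replicate numbers were checked for pairing by the correlation of same-numbered libraries' deviations from their group means: in CD4 DTx against CD8 DTx these were 0.36, 0.21 and 0.59, so that the numbers were taken to pair the samples there, a hint from the data and not from the labels. In CD4 PBS against CD8 PBS both were 0.19, but 2 pairs are too few for that step, and in each other comparison at least 1 was below 0.1. By sex-linked genes, replicate 3 came from male and replicates 1 and 2 from female mice in all groups.

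Named genes were, per type 2 list, up to 5 with the largest change among those that passed and up to 3 with the highest mean among the rest, and up to 3 per other list. A further type 1 gene is not reported here and was left out of its list. The members and lists were chosen with earlier results of these data known. Promoter windows came from RefSeq (GRCm38.p6), where all 5 symbols were found. Floors are 3 reads per library. Intervals of read ratios and these floors cover counting error only.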

Additional observations from a re-analysis of the deposited data

Results flagged for a closer look

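Ccl1 was picked out because the effect of DTx differed between CD4 and CD8 cells. The difference of the log2 fold changes was 6.99 (limma adjusted p = 0.028), with Ccl1 at 0 in both CD4 PBS libraries and at 226 and 38.7 normalized reads in CD8 PBS, and between 1053 and 1647 in all 6 DTx libraries. The size depends on the added constant, as CD4 PBS held no reads. Over 20 other settings it ranged from 4.75 to 10.4 and passed in 11.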

How the results depend on the processing

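In CD4 DTx against CD4 PBS, 3 members passed, and the number stayed at 2 or 3 in all 16 alternatives. Il4 passed in each, with a log2 fold change between 7.41 and 8.15 when 1 library was left out. That of Il5 ran from 6.01 to 9.21, and its call was lost without CD4 PBS replicate 3, while that of Gata3 ran from 1.73 to 2.46, and its call was lost without CD4 PBS replicate 2. Stat6 passed in none. With equal column totals the median log2 fold change of all genes in this comparison moved from -0.04 to -0.18, and Gata3, at 1.91, fell below 4-fold. With the replicate block, CD4 DTx against CD4 PBS gave 3 members. PBS and DTx were given to different mice, so libraries of different treatment do not share an animal. Within a treatment, the labels do not say whether libraries with 1 number share an animal. They also do not say whether such libraries share 1 of the days on which replicates were prepared. By sex-linked genes, the number goes with the sex of the mice in all groups. Only in CD4 DTx against CD8 DTx were the numbers taken to pair the samples.

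In CD8 DTx against CD8 PBS, where 1 member passed, 0 passed when only the groups compared were fitted, 2 with the replicate block (Gata3 at 1.44, adjusted p = 0.0089) and 2 with DESeq2, and 0 to 1 when a library was left out. In CD4 DTx against CD8 DTx, where 3 passed, 1 did with a pseudocount of 0.5 and 1 with edgeR, and 0 to 1 when a library was left out. In CD4 DTx against Treg PBS it was 2 or 3. In CD8 DTx against Treg PBS, with alternatives chosen after seeing the data, 1 passed (Il4), 0 with edgeR or when only the groups compared were fitted, and 0 to 1 when a library was left out. For the difference of DTx effects, Treg PBS against CD4 PBS and CD4 PBS against CD8 PBS the number was 0 throughout.

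Among the members and named genes, signs turned only for values that did not pass. In Treg PBS against CD4 PBS, Il4 (-0.12) was 0.073 with a pseudocount of 5, 0.90 with edgeR, 1.01 with DESeq2 and -0.99 to 0.31 when a library was left out, and Il5 (-0.15) was 0.064, 0.94, 0.70 and -1.75 to 1.45. When a library was left out, Stat6 ran from -0.031 to 0.30 in the difference of DTx effects, from -0.040 to 0.39 in CD4 DTx against Treg PBS and from -0.10 to 0.22 in CD4 PBS against CD8 PBS, and Irf1 from -1.39 to 0.38 in CD4 DTx against CD4 PBS. In CD8 DTx against Treg PBS, Il5 (0.59) was -0.26 with edgeR, -0.29 with DESeq2 and -0.18 to 2.05 when a library was left out, Gata3 (-0.21) ran from -0.51 to 0.027, and Stat6 (-0.034) was 0.00098 with TMM scaling and ran from -0.22 to 0.21. The cause was not tested.

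Calls over all genes ran from 658 to 2324 in CD4 DTx against CD4 PBS (1612 as reported), 197 to 2497 in CD8 DTx against CD8 PBS (1377), 0 to 85 for the difference of DTx effects (6), 1187 to 3270 in Treg PBS against CD4 PBS (2581), 555 to 1739 in CD4 DTx against Treg PBS (1002), 61 to 520 in CD4 DTx against CD8 DTx (208), 59 to 326 in CD4 PBS against CD8 PBS (137) and 703 to 1585 in CD8 DTx against Treg PBS (1089). Where leaving out a library left 1 CD4 PBS or CD8 PBS library, it was assumed to vary like the other groups. The PBS Tconv groups held 2 libraries each, and Il4 and Il5 rested there on 0 to 6 reads per group, a depth at which levels below 3 reads cannot be told apart.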
